A study of Rattus norvegicus with 18 samples.

Results

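Transthyretin (Ttr) and 7 further transcripts of the choroid plexus, Folr1, F5, Sostdc1, Calml4, Igfbp2, Aqp1 and Drc12, were followed in pools of rat brain RNA. They were chosen from measured values of the same arrays: the difference between recovery and control in the neocortex was known when the list was made. All probe sets that the platform annotation gives to 1 of these 8 genes were taken, which found 9 probe sets of 31042, for 8 genes of 14217. Aqp1 had 2 probe sets and each other gene had 1. Of the 9, 8 lay above the filter on dim signals, a mean log2 signal of 4.3 (a signal of 19.7) that kept 18625 probe sets, and 1 of Aqp1 did not.

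Neocortex and hippocampal formation of the right hemisphere came from male Sprague-Dawley rats with implanted electrodes for the sleep recording. Recovery rats had lost paradoxical (rapid eye movement) sleep for 72 h on small platforms over water and then had 6 h of recovery, deprived rats spent 78 h there, and control rats stayed in the home cage. The 72 h come from the source names of the arrays, while the treatment and design texts can also be read as 6 h of recovery after 78 h. Each state had 12 rats in 2 sets of 6, and RNA was pooled within a set and structure, so that 12 pools formed 6 groups of 2. For set 1 each group had 2 separately made pools of the same rats, 1 array each, whose log2 signals were averaged. Set 2 had 1 array per group, which makes 18 arrays. Both structures of a set came from the same rats, and the labels do not say whether a set number marks a shared day or litter across states. The individual rats behind a pool cannot be seen, and precision is limited by the 2 pools of rats per group.

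The choroid plexus is a folded epithelium on a vascular core that hangs into the brain ventricles and secretes cerebrospinal fluid. One of its folds lies along the hippocampal formation, and it may be taken or left when the brain is dissected. Its cells make large amounts of transthyretin, which carries thyroxine and, with retinol-binding protein, retinol. Folr1 encodes the folate receptor that moves folate into the fluid, Aqp1 a water channel of the apical membrane, Sostdc1 a secreted antagonist of bone morphogenetic proteins that also modulates Wnt signalling, and Igfbp2 a secreted binding protein of insulin-like growth factors, also made by meninges and glia. F5 encodes coagulation factor V, Calml4 a calmodulin-like protein of brush borders, and Drc12 a subunit of the dynein regulatory complex of motile cilia, which ependymal cells carry as well. In RNA from whole dissected tissue, fewer choroid plexus cells and less RNA per cell cannot be told apart.

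RefSeq promoter windows of assembly GRCr8 were listed for 6 of the 8 genes, Ttr, Aqp1, F5, Calml4, Igfbp2 and Drc12. For 4 of them the 250 bases before the listed promoter start are shown. Of these genes, Ttr and F5 varied together over the pools, Calml4 did so in part and the brighter Aqp1 probe set less. The windows lie on the plus strand at chr18:12218508-12218757 (Ttr), chr13:79046407-79046656 (F5), chr8:72218636-72218885 (Calml4) and chr4:85812534-85812783 (Aqp1), and run 5′ to 3′. The Ttr window lies inside the gene span (chr18:12216684-12225972), and that of Calml4 ends past the first base of its span, 72218870. Capitals mark TATAAA, the core of the TATA box.

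Ttr: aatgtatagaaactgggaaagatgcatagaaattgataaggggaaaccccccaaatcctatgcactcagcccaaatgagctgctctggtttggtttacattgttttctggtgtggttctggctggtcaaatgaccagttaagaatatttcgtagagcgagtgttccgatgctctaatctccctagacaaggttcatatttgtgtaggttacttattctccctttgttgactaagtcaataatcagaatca

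F5: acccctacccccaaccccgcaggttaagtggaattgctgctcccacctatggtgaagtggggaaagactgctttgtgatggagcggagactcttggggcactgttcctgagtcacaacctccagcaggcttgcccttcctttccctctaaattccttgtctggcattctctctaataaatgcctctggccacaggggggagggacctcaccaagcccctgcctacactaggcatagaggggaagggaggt

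Calml4: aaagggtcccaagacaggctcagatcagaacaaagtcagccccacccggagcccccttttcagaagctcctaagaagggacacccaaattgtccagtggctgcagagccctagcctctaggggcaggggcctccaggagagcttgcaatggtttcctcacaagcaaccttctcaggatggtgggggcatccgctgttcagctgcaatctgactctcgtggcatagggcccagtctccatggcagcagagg

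Aqp1: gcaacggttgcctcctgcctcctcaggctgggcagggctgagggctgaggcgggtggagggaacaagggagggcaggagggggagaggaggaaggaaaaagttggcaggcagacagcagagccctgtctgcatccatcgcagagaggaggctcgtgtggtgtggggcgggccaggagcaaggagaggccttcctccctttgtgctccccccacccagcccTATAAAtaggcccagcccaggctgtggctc

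TATAAA, searched on both strands, was found in Aqp1 among the 6 windows and in 12.9% of 33469 windows of this length. TAATCC, the core bound by Otx-type homeodomain proteins, was in 0 of the 6 and in 6.34% of all windows. TGTTTAC, a forkhead core, was in 0 of the 6 and in 3.21% of all. The share of G and C was 40.4% in the Ttr window, 56.0% in that of F5, 58.0% in that of Calml4 and 65.2% in that of Aqp1, against a median of 51.2% over all windows. These matches describe letters in the windows and nothing about binding. The windows of Ttr and Drc12 lie inside the gene spans, so the bases before those spans were not searched.

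The deposited signals were scaled alike, with array medians of 32.1 to 37.1. As a check of the labels, 8 of 8 tested markers of hippocampal neurons lay higher in the hippocampal formation than in the neocortex, 6 of them past limma's adjusted p of 0.05. Of 47 symbols listed for choroid plexus epithelium, 37 were on the array under a single symbol, and 21 had a probe set above the filter, 13 of them outside the 8 genes followed here. The defining markers Kl, Kcnj13 and Otx2 were all under the filter: Kl had pool signals from 1.61 to 15.4, Kcnj13 from 3.57 to 16.2, and the brighter Otx2 probe set from 1.14 to 30.6. The tight junction gene Cldn2 was under it too, with signals from 3.5 to 56.4.

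Ttr varied over 5.26 log2 units between the pools, and its signal was higher in set 1 than in set 2 in each of the 6 groups. In recovery hippocampal formation its signal was 1079.2 and 1169.2 on the set 1 arrays and 329.1 in set 2. In deprived hippocampal formation it was 4444.7 and 4329.1 in set 1 and 436.3 in set 2, and in control hippocampal formation 2628.4 and 2796.5 in set 1 and 1252.8 in set 2. Within every hippocampal group set 1 was the higher one, and the deprived pool of set 1 was the highest of all 12. In recovery neocortex the signal was 2035.3 and 2213.6 in set 1 and 722.1 in set 2. In deprived neocortex it was 1644.6 and 1410.9 in set 1 and 482.5 in set 2, and in control neocortex 1989.3 and 1598.0 in set 1 and 114.4 in set 2. The control pool of set 2 was the lowest of the 12, and all neocortical pools of set 1 lay above all of set 2. Both arrays of a set 1 pool differed by a median of 0.118 and at most 0.316 on the log2 scale, while set 1 exceeded set 2 of the same group by a median of 1.72 (1.11 to 3.96), in 6 of 6 groups.

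**Figure D1:**
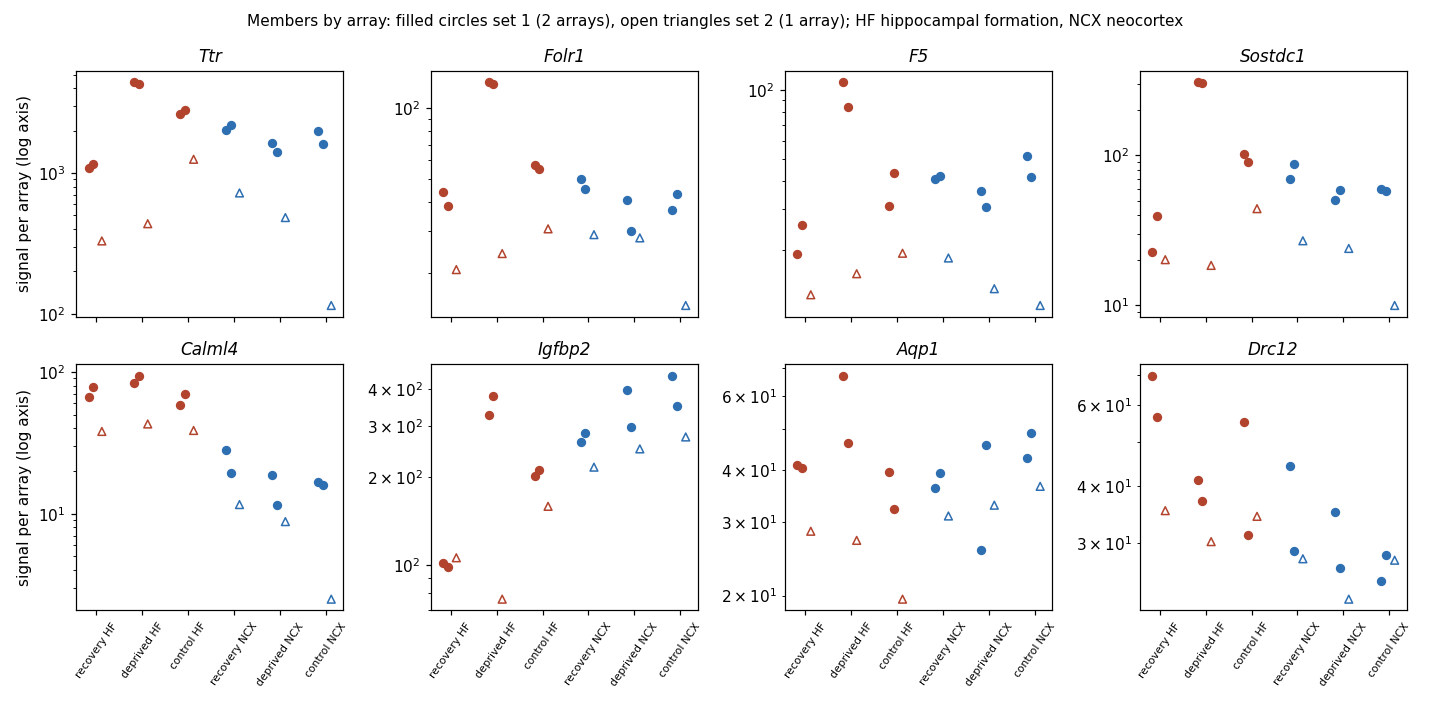
Signal on each of the 18 arrays (log axis) of the brightest probe set of each gene, by group, with filled circles for the 2 arrays of set 1 and open triangles for the array of set 2. For Ttr the set 2 triangle lies under the set 1 circles in all 6 groups, from 114.4 in control neocortex to 4444.7 in deprived hippocampal formation.

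Sostdc1, Folr1 and F5 followed the same order of pools as Ttr at its ends. Sostdc1 had pool signals of 30.1 and 20.2 in recovery hippocampal formation, 307.1 and 18.5 in deprived, and 95.7 and 44.2 in control, in set 1 and set 2. Its neocortical signals were 78.2 and 27.0 in recovery, 54.6 and 24.0 in deprived, and 58.8 and 10 in control. The deprived hippocampal pool of set 1 was its highest and the control neocortical pool of set 2 its lowest, as for Ttr. Folr1 had hippocampal signals of 41.3 and 20.6 in recovery, 128.0 and 24.1 in deprived and 56.0 and 30.7 in control, in set 1 and set 2. In the neocortex it had 47.7 and 29.0 in recovery, 35 and 28.1 in deprived, and 39.9 and 14.5 in control, so that set 1 was higher in all 6 groups. F5 had hippocampal signals of 22.2 and 12.7 in recovery, 95.4 and 15.7 in deprived, and 36.8 and 19.3 in control. Its neocortical signals were 41.4 and 18.4 in recovery, 33.4 and 13.5 in deprived, and 46.3 and 11.4 in control. In F5 the sets did not overlap within either structure.

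Calml4, Igfbp2, the brighter Aqp1 probe set and Drc12 departed from this order in part. Calml4 had hippocampal signals of 71.9 and 38.0 in recovery, 88.5 and 42.9 in deprived, and 63.4 and 38.6 in control, in set 1 and set 2. Its neocortical signals were 23.3 and 11.6 in recovery, 14.7 and 8.8 in deprived, and 16.3 and 2.5 in control, all of set 2 and 2 of set 1 under the filter level. Every hippocampal pool of Calml4 lay above every neocortical one. Igfbp2 had hippocampal signals of 99.5 and 105.7 in recovery, 352.7 and 76.2 in deprived, and 206.7 and 158.7 in control. In the neocortex Igfbp2 had 274.0 and 216.3 in recovery, 344.1 and 249.9 in deprived, and 395.6 and 274.6 in control, and its highest pool was control set 1 there. The brighter Aqp1 probe set kept within 19.6 to 55.8 and Drc12 within 22.6 to 62.8 over the 12 pools, the narrowest ranges of the 8 tested probe sets. Drc12 was highest in recovery hippocampal formation of set 1, where Ttr was near the middle of its range.

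The dimmer Aqp1 probe set, which was not tested, behaved differently from the brighter one. On the set 1 arrays of the hippocampal formation it read 3.3 and 0.5 in recovery, 46.4 and 47.5 in deprived, and 17.3 and 17.1 in control. In set 2 it read 0.7 in recovery, 1.5 in deprived and 9.6 in control. Its deprived set 1 value was the highest, as for Ttr, and 2 of the 3 recovery arrays were under a signal of 1. In the neocortex its arrays lay between 16 and 26 in set 1 and between 5.8 and 16 in set 2.

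**Figure D2:**
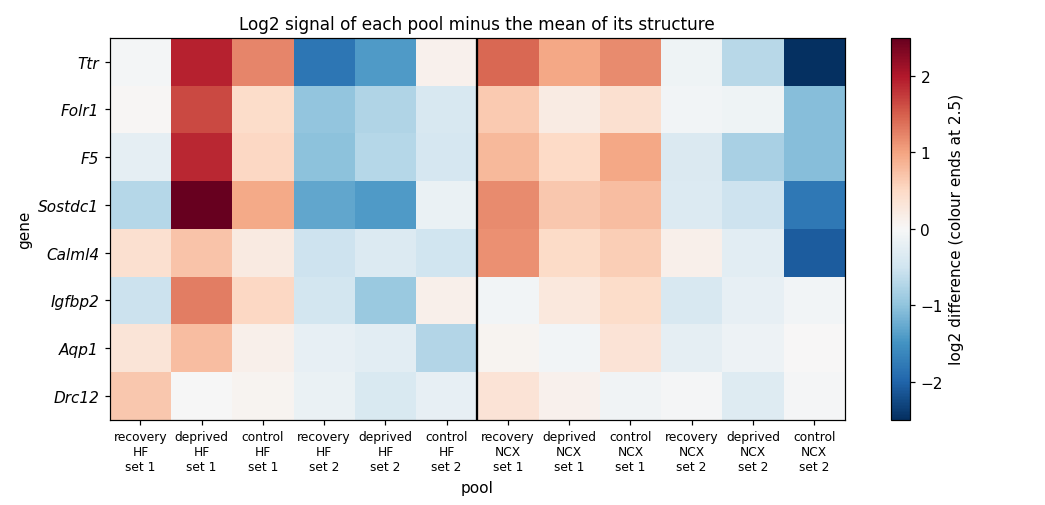
Log2 signal of each pool minus the mean of the 6 pools of its structure, for the brightest probe set of each gene (rows) in each pool (columns), red above and blue below. For Ttr and Sostdc1 the deprived hippocampal pool of set 1 is the reddest and the control neocortical pool of set 2 the bluest, while Drc12 stays pale throughout.

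One pool held the top for most of these genes. The deprived hippocampal pool of set 1 was the highest of 12 for 6 of 8 genes, all but Igfbp2 and Drc12, against 9.16% of all 18625 probe sets tested. The control neocortical pool of set 2 was the lowest for 5 of 8, Ttr, Folr1, F5, Sostdc1 and Calml4. That pool is part of the comparison behind the choice of genes, so nothing is read from this count. Of the 13 further choroid plexus genes tested, 9 were highest in that deprived pool and 4 lowest in that control pool, where 8.99% of all probe sets were lowest. Mfrp and Rbm47, with mean log2 signals of 4.386 and 4.32, passed the filter only through that deprived pool. Nothing is therefore read from the count of 9 either. These extremes describe single pools with no test.

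The sets of rats were therefore compared over the 3 states, a comparison added after they were seen to differ. In the hippocampal formation 7 of the 8 probe sets were higher in set 1 than in set 2 past limma's adjusted p of 0.05, beside 30.7% of all probe sets called in either direction and 13.6% called higher in set 1. F5 and Calml4 passed the filter only through their set 1 pools, so nothing is read from the count. The call of F5 held in 10 of 10 alternatives, no filter among them. Ttr had a log2 difference of 2.07 (SE 0.43, 4.20-fold, adjusted p = 0.00388, limma, 3 pools per set). Aqp1 was 1.75-fold, Folr1 2.69-fold, F5 2.73-fold and Sostdc1 3.77-fold higher, with limma's adjusted p between 0.00208 and 0.0127. Calml4 was 1.86-fold (adjusted p = 0.0443) and Drc12 1.41-fold higher (adjusted p = 0.0402), and Igfbp2 had a log2 difference of 0.84 (SE 0.30, adjusted p = 0.0530). The calls of Calml4 and Drc12 held in 3 of 10 alternatives each: with no filter their adjusted p was 0.11 and 0.0847, leaving 5 of 8 called, and neither was called without the pools of any 1 state (up to 0.169 and 0.245). In the neocortex the comparison holds the recovery and control pools behind the choice of genes, so it is a description without a test. Of all probe sets there, 16.1% were called in either direction and 7.74% higher in set 1. Ttr had a log2 difference of 2.39 there (SE 0.43, 5.25-fold), F5 was 2.83-fold and Calml4 2.80-fold higher, and Sostdc1 3.38-fold. The log2 difference was 0.83 for Folr1, 0.44 for Igfbp2, 0.25 for Drc12 and 0.22 for Aqp1. The median log2 difference of the 8 was 1.16 in both structures, against -0.00129 over all hippocampal and -0.00806 over all neocortical probe sets. Without the deprived pools the hippocampal count was 4, with Sostdc1 not called either. Some sizes are not settled, because set 2 means lay under the filter level of 4.3 on the log2 scale: F5 at 3.82 in the neocortex and 3.97 in the hippocampal formation, and Sostdc1 at 4.22 in the neocortex. For Calml4 both neocortical set means did (4.15 and 2.67). With a floor of 16 the neocortical difference of Calml4 between sets was 0.231.

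**Figure D3:**
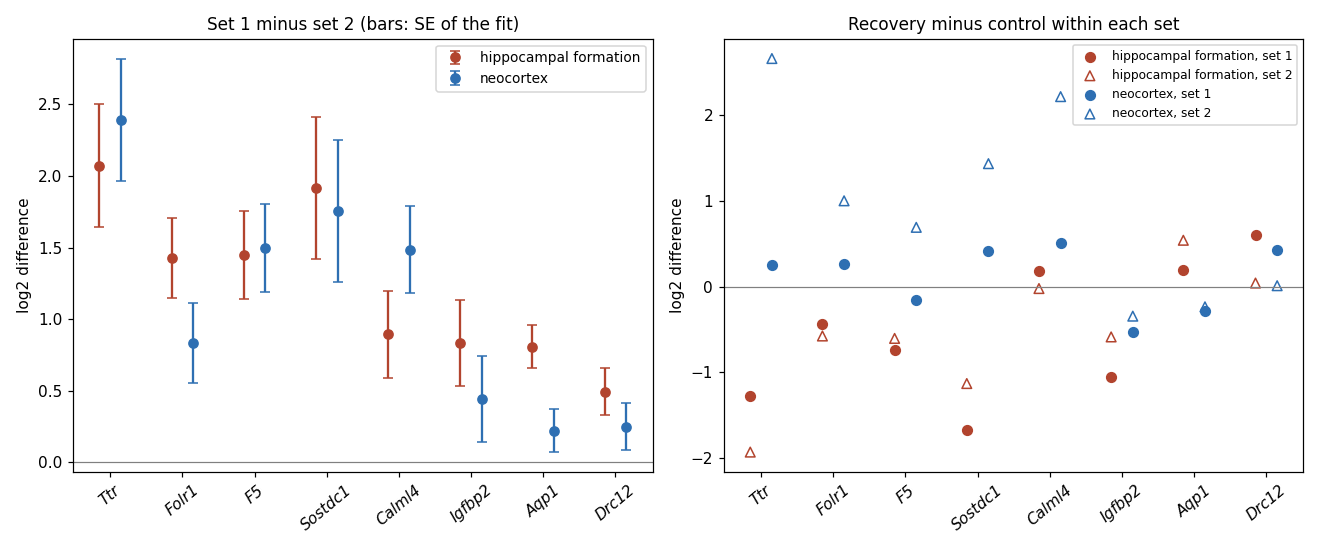
Left, log2 difference of set 1 minus set 2 for each gene in the hippocampal formation (red) and the neocortex (blue), with bars for the SE of the fit. Right, log2 difference of recovery minus control within set 1 (filled circles) and set 2 (open triangles). All 16 points on the left lie above 0, and on the right the hippocampal points of Ttr are at -1.27 and -1.93 while its neocortical points are at 0.25 and 2.66.

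Among the sleep states no difference of these genes passed limma's adjusted p of 0.05. Limma called 0 of the 8 probe sets and 0% of all 18625 in deprived against control, recovery against control and recovery against deprived of the hippocampal formation, and in deprived against control and recovery against deprived of the neocortex. At an unadjusted p under 0.05 the count over all probe sets was 204, 282 and 301 in the hippocampal formation and 207 and 169 in the neocortex, and 0 of the 8 in each. In the hippocampal formation Ttr had a log2 signal of 9.25 ± 1.25 in recovery and 10.85 ± 0.79 in control (SD, n = 2 pools each), a difference of -1.60 (SE 1.37, limma adjusted p = 1). The within-set differences were -1.27 in set 1 and -1.93 in set 2. For recovery against deprived the difference of Ttr was -1.19 (-1.97 in set 1 and -0.41 in set 2), and for deprived against control -0.41, with opposite signs in set 1 (0.69) and set 2 (-1.52). Because the fit leaves the difference between sets in its spread, the SE of Ttr is large, and 0 calls does not show that its level was equal. With the set as a block the count of these genes called stayed at 0, and Ttr in recovery against control hippocampal formation had an adjusted p of 0.538.

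The other genes gave values on both sides of 0. For recovery against control in the hippocampal formation, Sostdc1 had a log2 difference of -1.40 (SE 1.21; -1.67 in set 1 and -1.13 in set 2) and Igfbp2 one of -0.82 (SE 0.54; -1.05 and -0.59). F5 was at -0.67 and Folr1 at -0.51, while Aqp1 (0.37), Drc12 (0.32) and Calml4 (0.079) were above 0. The dimmer Aqp1 probe set, not tested, was at -3.24 in set 1 and -3.26 in set 2 on this scale, at signals close to the floor of 1. For recovery against deprived 7 of 8 were below 0, with Sostdc1 at -1.61, F5 at -1.21 and Folr1 at -0.93, and Drc12 at 0.45. These values rest mainly on set 1, where Sostdc1 was at -3.35 and F5 at -2.11, against 0.13 and -0.31 in set 2. Deprived and control hippocampal formation differed with opposite signs in the 2 sets for Sostdc1 (1.68 and -1.26), F5 (1.37 and -0.30), Folr1 (1.19 and -0.35) and Igfbp2 (0.77 and -1.06).

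In the neocortex the values for recovery against control, which were known when the genes were chosen, are a description without a test, beside 0% of all probe sets called. Ttr averaged 10.27 ± 1.10 in recovery and 8.82 ± 2.80 in control (log2 signal, SD, n = 2 pools each), a difference of 1.45 made of 0.25 in set 1 and 2.66 in set 2. Calml4 differed by 1.36 (0.51 and 2.21), Sostdc1 by 0.92 (0.41 and 1.43) and Folr1 by 0.63 (0.26 and 1). In these 4 genes the set 2 value was the larger, and it rests on the low control pool of set 2. F5 was at 0.27, Drc12 at 0.22, Aqp1 at -0.26 and Igfbp2 at -0.44. For deprived against control Ttr was at 0.92 (SE 1.37, limma adjusted p = 1), again -0.23 in set 1 and 2.08 in set 2, and for recovery against deprived at 0.53 (0.48 and 0.58). Those comparisons share their pools with each other.

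The structures differed in 3 of the 8 probe sets, beside 19.9% of all 18625 called. One of the 3, Calml4, passed the filter only through its hippocampal pools, so nothing is read from the count. Calml4 was higher in the hippocampal formation, with mean log2 signals of 5.76 there and 3.41 in neocortical pools (difference 2.35, SE 0.25, limma adjusted p = 0.000983), where the neocortical mean under the filter level leaves the size unsettled (called in 13 of 13 alternatives, no filter among them). Drc12 was 1.40-fold higher (difference 0.48, SE 0.12, adjusted p = 0.0288). Igfbp2 was 1.98-fold lower in the hippocampal formation (7.18 against 8.16, SE 0.20, adjusted p = 0.0164). Ttr had a difference of 0.56 (SE 0.36, adjusted p = 0.295), Sostdc1 one of 0.53, Folr1 0.42, F5 0.12 and Aqp1 -0.14, none past the test. Leaving out 1 animal pool changed several calls. Drc12 was called in 7 of 13 alternatives, and was not with no filter (adjusted p = 0.0601), with the second technical arrays alone (0.0787), or without either deprived pool (0.108 and 0.0905) or the control pool of set 1 (0.0975). Without the recovery pool of set 1 only Calml4 stayed called, without the control pool of set 1 Ttr was called (1.04, adjusted p = 0.0258), and without the deprived pool of set 2 Folr1 was called (0.77, adjusted p = 0.0280). Among 6 other ependymal genes tested, 4 were called higher and 1 lower in the hippocampal formation. Among 18 meningeal and fibroblast genes 2 were called higher and 16 lower, beside 10.1% and 10.7% of all genes. Whether those tissues had a part in the values of Drc12, Calml4 or Igfbp2 was not tested.

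For a difference between the structures in the change with sleep state, limma called 0 of the 8 and 0% of all 18625 probe sets for deprived against control and for recovery against deprived. At an unadjusted p under 0.05 there were 0 and 1 of the 8, and 213 and 298 of all. The 1 was F5 in recovery against deprived, with a difference of -1.59 (SE 0.54, adjusted p = 1), hippocampal formation minus neocortex, where that of Ttr was -1.72 (SE 0.88, adjusted p = 1). For recovery against control the calls over all probe sets were 0%, with 243 below 0.05 before adjustment. That contrast holds the neocortical values behind the choice of genes, so the difference of Ttr there, -3.05, is a description.

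Whether the genes varied together was asked with the correlation of their log2 signals with Ttr over the 6 pools of each structure. In the hippocampal formation the median r over the 7 other genes was 0.897, against -0.0117 over all probe sets, and in the neocortex 0.921, against -0.0284. With signals raised to a floor of 16 the neocortical median was 0.551. The pools separate by set in Ttr, so each r is also given after the mean of each set was taken off, when only 3 pools per set carry it. The median was then 0.818 in the hippocampal formation and 0.780 in the neocortex. The 4 neocortical recovery and control pools are those behind the choice of genes, so the neocortical relations are a description with no p. The relation of Ttr between structures holds the same pools and is a description too. It stayed among the 8 relations over which p was adjusted, with the 7 hippocampal ones. Of the 7, 4 had a Benjamini-Hochberg adjusted p under 0.05 for r and 3 for rho in the two-sided exact permutation test. That test ran over all 720 pairings, and its smallest possible p is 0.00139. With permutation within sets (36 pairings, smallest possible p 0.0278) the lowest adjusted p of the 7 was 0.133 and 0 passed.

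Sostdc1, Folr1 and F5 varied with Ttr in the hippocampal formation, and their neocortical r is given beside it. Sostdc1 had r = 0.941 in the hippocampal formation and 0.989 in the neocortex, and 0.899 and 0.979 after set means. Its Spearman rho was 0.943 and 1, and r was 0.968 and 0.994 without the 2 pools farthest from the median of Ttr. Folr1 had r = 0.937 (rho 0.943) in the hippocampal formation and 0.982 (rho 1) in the neocortex, 0.830 and 0.965 after set means, and 0.916 and 0.937 without the 2 farthest pools. F5 had r = 0.924 (rho 0.943) and 0.921 (rho 0.943), 0.818 and 0.780 after set means, and 0.929 and 0.964 without the 2 farthest pools. Each of the 3 hippocampal relations had an adjusted exact permutation p of 0.00741 for r and of 0.0444 for rho. After set means the adjusted exact permutation p within sets was 0.133 for each.

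Calml4, Igfbp2, Aqp1 and Drc12 did so in part or not measurably. Calml4 had r = 0.983 with Ttr in the neocortex (rho 1; 0.991 after set means; 0.891 without the 2 farthest pools), at signals mostly under the filter level. With signals raised to a floor of 16 its neocortical r was 0.551. In the hippocampal formation Calml4 had 0.794 (rho 0.714, adjusted exact permutation p = 0.138), 0.260 after set means and 0.481 without the 2 farthest pools. Igfbp2 had 0.897 in the hippocampal formation (rho 0.829, adjusted exact permutation p = 0.0333 for r and 0.117 for rho), 0.886 after set means and 0.928 without the 2 farthest pools. In the neocortex Igfbp2 had 0.427 (rho 0.314), -0.577 after set means and 0.682 without the 2 farthest. The brighter Aqp1 probe set had 0.602 (rho 0.486) in the hippocampal formation and 0.320 (rho 0.543) in the neocortex, and -0.181 and -0.435 after set means. The dimmer Aqp1 probe set had 0.940 and 0.905, and 0.985 and 0.733 after set means, so that the 2 probe sets of this gene disagree. Drc12 had 0.318 (rho 0.371) and 0.470 (rho 0.543), and -0.615 and -0.0947 after set means. In the hippocampal formation the adjusted exact permutation p was 0.272 for the brighter Aqp1 probe set and 0.579 for Drc12.

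**Figure D4:**
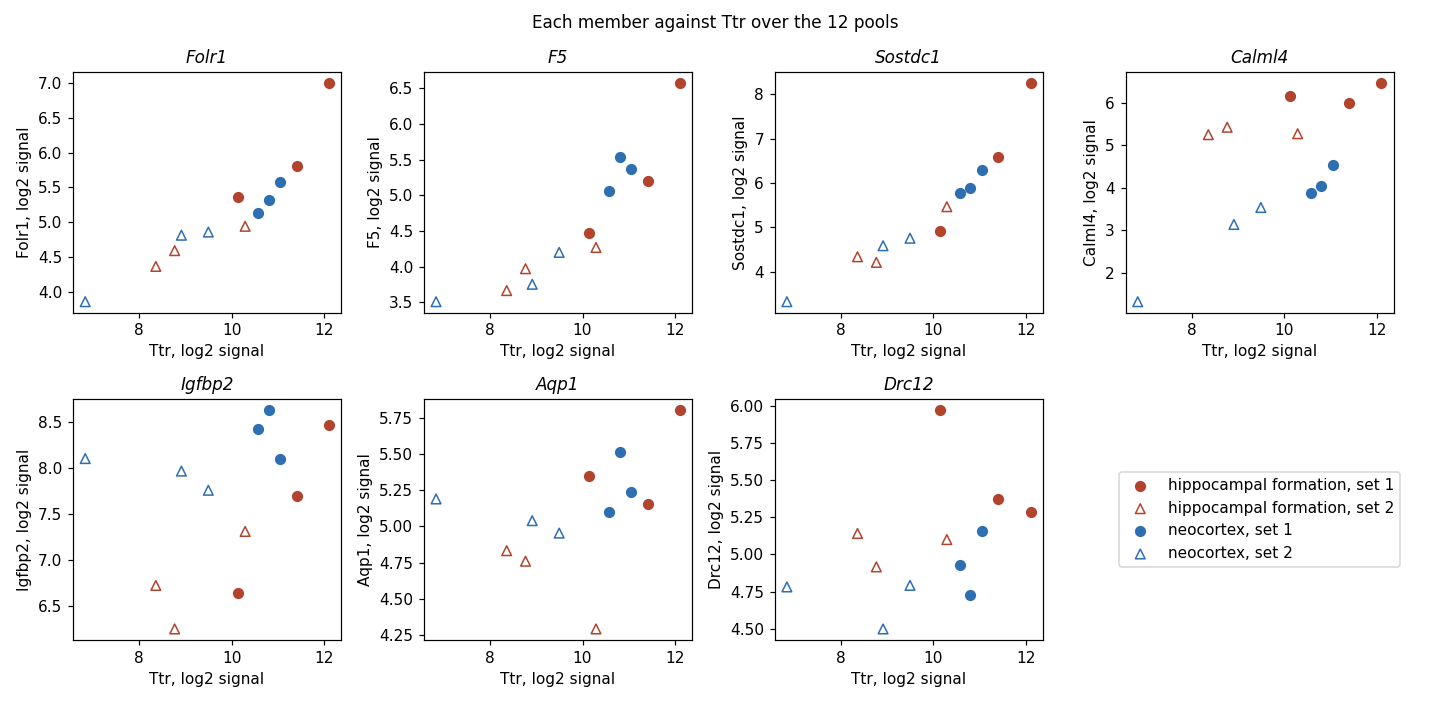
Log2 signal of each of the other 7 genes (vertical) against that of Ttr (horizontal) in the 12 pools, red for hippocampal formation, blue for neocortex, filled for set 1 and open for set 2. Sostdc1 and Folr1 fall along a line in both structures (r from 0.937 to 0.989), whereas Drc12 is scattered (0.318 and 0.470).

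The hippocampal and neocortical signals of Ttr were set side by side in the same animals. Over the 6 animal pools they had r = 0.358 (rho 0.257), and r = 0.692 without the 2 pools farthest from the median. After set means r was -0.821. The neocortical recovery and control values are among those behind the choice of genes, so each r is a description with no p. The control rats of set 2, with the lowest neocortical Ttr (114.4), had the highest hippocampal Ttr of set 2 (1252.8). The recovery rats of set 1, with the highest neocortical Ttr, had the lowest hippocampal Ttr of set 1. Among the pairs of the 8 genes, all 28 correlations were above 0 in each structure, with a median of 0.801 in the hippocampal formation and 0.560 in the neocortex, and the lowest were 0.0406 (Igfbp2 with Drc12) and 0.121 (Igfbp2 with Drc12).

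The genes outside the list whose pattern was most like that of Ttr were ranked by r over the 12 pools after structure means were taken off, a description with no test. Mfrp (0.935), a membrane frizzled-related protein, Ptpra (0.926), a receptor tyrosine phosphatase, the homeobox gene Msx1 (0.916), Stat3 (0.915), a transcription factor of cytokine signalling, and Dynlrb1 (0.911), a dynein light chain, came first. Sox2 (0.910), Tafa5 (0.906), Ttc28 (0.902), Plcd1 (0.899) and Khsrp (0.896) followed. By the same measure Sostdc1 was at 0.940, Folr1 at 0.919, F5 at 0.913, Calml4 at 0.883, Igfbp2 at 0.678, Aqp1 at 0.463 and Drc12 at 0.362. Mfrp spanned 3.09 log2 units over the pools, against 0.502 for Ptpra and 0.266 for Dynlrb1, so that a high r did not mean a change of like size. With set means taken off as well, Mfrp was at 0.799, Ptpra at 0.818 and Stat3 at 0.865. Mfrp had pool signals of 21.2 and 9 in recovery, 76.0 and 12.5 in deprived, and 30.5 and 18.9 in control hippocampal formation, in set 1 and set 2.

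Most of the other choroid plexus genes tested had a positive r with Ttr. For the 13 tested outside the 8, the median r with Ttr by this measure was 0.728 and 12 were above 0, against a median of -0.0235 and 48.4% above 0 over all 10294 genes. Besides Mfrp and Msx1 the highest were Enpp2 (0.845), which makes lysophosphatidic acid, the anion exchanger Slc4a2 (0.8) and Ace (0.765), the angiotensin-converting enzyme. The lowest were Ecrg4 (-0.617), a secreted precursor, the chloride cotransporter Slc12a2 (0.158) and Col9a3 (0.438), a collagen chain. In set 1 against set 2, limma called 8 of 13 higher in the hippocampal formation, beside 13.9% of all genes. It called 3 higher in the neocortex, beside 6.57%, and 0 lower in either structure. By sign, 12 and 11 of the 13 were above 0, with medians of 0.6 and 0.334. Mfrp and Rbm47 passed the filter only through their set 1 pools, so nothing is read from these counts. Enpp2 was called in both structures, with log2 differences of 0.81 and 0.51 (limma adjusted p = 0.00297 and 0.0491). Mfrp (1.51 and 1.70) and Msx1 (0.66 and 0.58) were also called in both. All set 2 pools of Mfrp lay under the filter level, so its sizes are not settled. For recovery against deprived hippocampal formation 13 of 13 were below 0 (median -0.489, against -0.000468 over all probe sets), with 0 called, and Ace was at -1.01. Mfrp and Rbm47 passed the filter only through the deprived pool of set 1, so nothing is read from that count. In set 2 alone the signs were mixed. There Msx1 (65.0 against 61.2), Cdkn1c (78.0 against 56.4), Igf2 (124.3 against 93.9) and Slc13a4 (58.9 against 41.6) were higher in recovery. Ephx1 (88.1 against 82.3) and Col9a3 (88.6 against 83.5) were too, and the rest were lower. For recovery against control there 12 of 13 were below 0 (median -0.315, against 0.006 over all probe sets), again with 0 called. Of the 16 genes of the list with only dim probe sets, not tested, 9 were highest in the deprived hippocampal pool of set 1 by their brightest probe set. Among them were Cldn2 (r = 0.908) and Otx2 (0.632), while Kl (-0.0115) and Kcnj13 (-0.545) were not. The share of all dim probe sets that were highest in that pool was not counted, so nothing is read from the 9.

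**Figure D5:**
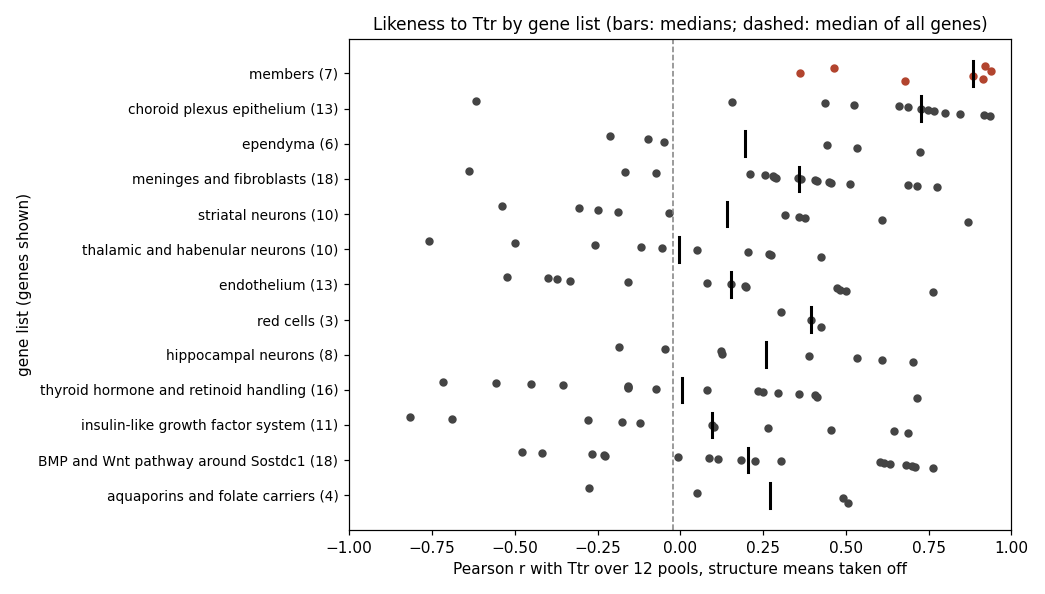
Pearson r with Ttr over the 12 pools after structure means were taken off, for each gene (points) of each list (rows, with the number of genes shown), with bars at the medians and a dashed line at the median of all genes (-0.0235). The followed genes and the other choroid plexus genes (median 0.728) have the highest medians of the lists shown, before set means are taken off.

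Markers of other tissues near the dissected ones had lower medians by the same measure. The median was 0.360 over 18 meningeal and fibroblast genes, led by Bgn (0.776) and Mgp (0.714), and 0.196 over 6 ependymal genes, led by Dynlrb2 (0.724) and Tmem212 (0.533). It was 0.141 over 10 striatal genes, led by Pde10a (0.869) and Ppp1r1b (0.609), -0.00328 over 10 thalamic and habenular genes (Synpo2 0.424, Rora 0.274) and 0.258 over 8 hippocampal neuron genes (Fibcd1 0.702, Pkp2 0.608). It was 0.152 over 13 endothelial genes (Vwf 0.762, Kdr 0.5) and 0.393 over 3 red cell genes (Alas2 0.426, Hba-a3 0.393). Within the hippocampal formation alone the red cell median was 0.796, close to the 0.835 of the choroid plexus genes. Within the neocortex those medians were -0.1615 and 0.758. In set 1 against set 2 of the hippocampal formation, 2 of 6 ependymal, 1 of 18 meningeal, 1 of 10 striatal, 0 of 10 thalamic, 3 of 8 hippocampal neuron, 4 of 13 endothelial and 2 of 3 red cell genes were called higher by limma, beside 13.9% of all genes. Called lower were 1 meningeal, 3 striatal, 2 thalamic and 1 hippocampal neuron gene, beside 14.9% of all. With set means taken off as well, the median over the choroid plexus genes was 0.467. It was 0.490 over the striatal and 0.397 over the meningeal genes, so the choroid plexus genes no longer had the highest. The difference between lists in r was not tested.

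Genes that work with the followed ones were described in the same way. Of 16 genes that handle thyroid hormone and retinoids, 8 had an r with Ttr above 0 (median 0.00417), led by Rbp4 (0.714), the plasma retinol carrier, and Hr (0.413). In set 1 against set 2, 3 of the 16 were called higher and 2 lower in the hippocampal formation, and 0 differed by limma's adjusted p in the neocortex. The median r was 0.0945 over 11 genes of the insulin-like growth factor system (Igf2 0.688, Igf1r 0.644), 0.205 over 18 genes of the bone morphogenetic protein and Wnt pathways (Bmpr2 0.763, Bmpr1a 0.709) and 0.271 over 4 aquaporins and folate carriers (Aqp4 0.507, Aqp9 0.491). In the hippocampal formation 2 of the 11, 3 of the 18 and 0 of the 4 were called higher in set 1, and 1, 3 and 0 lower. Over all genes there, 13.9% were called higher in set 1 and 14.9% lower.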

How the data were processed

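Biotin-labelled cRNA of pools of 6 rats was hybridised to Affymetrix rat arrays, per the labels. The authors deposited 1 linear intensity for each of 31099 probe sets and 18 arrays, computed with MAS5 per the submitters' processing notes, and its settings are not given in the sources used here. Intensities under 1 were set to 1, taken to log2, averaged over the arrays of a pool and not normalized further. Control probe sets (57) and the lowest 40% of the rest were left out. Names came from the platform annotation, 20832 probe sets with 1 symbol and 436 with several, and symbols matched by gene identifier in 20764 cases, with 0 changed. The probe set shared by Mt1f, Ttr and Mt1 was not counted as Ttr.

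Limma's lmFit and eBayes with trend (limma 3.58.1, R 4.3.3) were fitted on all 18625 probe sets, as a means model of 6 groups (degrees of freedom 6 residual and 3.78 prior). The structures were compared on the difference between both structures within each of the 6 animal pools (3 residual, 4.13 prior). P-values were adjusted by Benjamini-Hochberg, and the fits were tested on simulated data. For correlations the planned adjustment over 15 relations was replaced by one over 8, the 7 hippocampal relations and that of Ttr between structures. P-values measure the spread between pools of rats. The set is given as a fixed block because set numbers mark sets of rats in the series design, and deviations of same-numbered pools correlated at 0.539 to 0.682 within a structure. The sets were also compared in that block fit. The genes and all lists were chosen with earlier results of these data known. The rule for other genes was the 10 most like Ttr by r, the 5 highest and 3 lowest of the choroid plexus list and the 2 highest of each other list, while Kl, Kcnj13, Otx2 and Cldn2 were named after their values were seen. Alternatives were quantile normalization, a floor of 16, log2(signal + 16), other filters, single technical arrays, the mean of all probe sets of a gene and each pool left out. Correlations, motifs and figures used Python 3.11.15, numpy 2.4.6, pandas 2.3.3 and matplotlib 3.10.9.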

Additional observations from a re-analysis of the deposited data

Results flagged for a closer look

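In the changes with sleep state, every pool pair of 1 structure moved one way and every pair of the other the opposite way in 9 cases, given as hippocampal minus neocortical differences of log2 changes. For recovery against control these were Ttr (-3.055), Folr1 (-1.137), Aqp1 (0.6239) and Sostdc1 (-2.321), given as a description because they hold the neocortical values known when the genes were chosen. For recovery against deprived they were Ttr (-1.716), Folr1 (-1.175), F5 (-1.586) and Calml4 (-0.7685), and for deprived against control Aqp1 (0.8393), each with a limma adjusted p of 0.9999. Ttr in recovery against control was at -1.271 and -1.929 in the hippocampal formation and at 0.2515 and 2.658 in the neocortex, in set 1 and set 2. The signs rest on 2 pairs of pools per structure. The 9 cases were found among 8 tested probe sets, each looked at in every comparison of states named here. How many of all tested probe sets show the same pattern was not counted, so nothing is read from the number of cases.

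A probe set that the annotation assigns to Mt1f, Ttr and Mt1 together lay outside the comparisons. Its signal was 328.5 and 257.8 in recovery hippocampal formation and 198.6 and 183.8 in control (set 1 and set 2), a log2 difference of 0.6071, while the probe set of Ttr alone was lower in recovery than in control. Which of the genes it measures cannot be told apart.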

How the results depend on the processing

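Over the alternatives, 1003 of 1124 log2 differences of single genes kept their direction and side of the threshold, while 81 uncalled ones changed sign, with 34 no longer past the threshold and 6 newly past it. The counts of genes called for sleep states stayed at 0 in all that were run, including the replicate block. The count for the structures was 3 with the block, 1 with the lowest 60% of probe sets left out, where dim genes were not tested, and 1 to 3 without 1 animal pool. The count for set 1 against set 2 was 4 to 6 in the hippocampal formation without 1 pool. In this fit leaving out either pool of a pair leaves the other uninformative, so both give nearly the same value. The neocortical difference of Sostdc1 between sets, a description, was 1.159 to 2.045 over the alternatives. The correlation of Ttr between structures was 0.358 and reversed to -0.8209 with the replicate block. The median r with Ttr in the neocortex was 0.5505 with a floor of 16, where dim values are tied, and 0.902 to 0.949 without 1 pool, and in the hippocampal formation 0.818 to 0.927. With the mean of its probe sets, Aqp1 had r = 0.965 with Ttr in the hippocampal formation and 0.881 in the neocortex. Signals under the filter level limit Calml4, F5, Sostdc1, Folr1 and the dimmer Aqp1 probe set.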
